A study of Mus musculus with 15 samples.

Results

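The transcripts described here encode translation initiation factors (eIF) and elongation factors (eEF), measured by mRNA sequencing of mouse liver. The members were the protein-coding genes of the deposited count table whose GENCODE M21 symbol begins with Eif or Eef and a digit. Mettl13, Gm8994 and Gm5580, which have factor names in other annotations, do not meet this rule and are not counted. The kinases named Eif2ak, the Y-linked Eif2s3y and names with -ps were left out. This rule gave 63 of the 55450 genes in the table, of which 21961 are protein-coding, and 61 of them passed the filter on low counts. The other 2 were Eif4e1b, with 0 counts in every mouse, and Eef1akmt3, with 1 to 22 counts.

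The study asked how aging and protectin DX, a lipid mediator derived from docosahexaenoic acid, bear on frailty. All 15 mice were female, group-housed C57BL/6 mice on a chow diet, with 1 liver library per mouse and 5 mice per group. When the study began, some weeks before treatment, the Adult group (A1 to A5) was 6 months old and the Old group (O1 to O5) 22 months old, and both were given the corn oil vehicle by daily oral gavage. Mice of the PDX group (P1 to P5), also 22 months old, were given protectin DX at 30 ng/g of body weight in that oil. Treatment lasted 9 weeks according to the sample labels and 8 according to the series text. No group of 6-month-old mice received protectin DX, so its comparison with Adult mice combines age and treatment.

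Initiation factors bring the initiator tRNA and the mRNA to the small ribosomal subunit, find the start codon and release themselves as the large subunit joins. Elongation factors then deliver aminoacyl-tRNAs and move the ribosome along the message. In liver, which makes the plasma proteins, much of this machinery is controlled through phosphorylation by kinases that sense amino acids and insulin, which transcript levels do not show.

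Each Adult library held 22424383 to 36070835 counts, each Old library 25480180 to 29069346 and each PDX library 26113995 to 30139181. Levels are CPM, the counts of a gene per 10⁶ counts of its library, scaled with TMM factors, and fold changes on the log2 scale with a standard error (SE). Adjusted p-values are from edgeR's quasi-likelihood test in 1 fit of all 15 mice, with Benjamini-Hochberg adjustment over the 15808 genes tested. The threshold was 0.05 against the Adult group and 0.25 between PDX and Old. The mice are separate animals. The study describes O2 and O5 as apart from the remaining animals in gene expression. The summed level of 6 hepatocyte markers was 76755 CPM in O2 and 48826 CPM in O5, and 108204 to 203169 CPM in the other 13 mice. Values without O2, O5 or both are given for a part of the differences.

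Between Old and Adult, 3 of the 61 transcripts tested passed the threshold, Eef1b2 and Eef1g upward and Eif4a2 downward. That is 4.92% of the members, against 6.78% of all genes (4.71% upward and 2.07% downward), so the share of calls was not above the background. Between PDX and Old, 0 of 61 passed, as did 0% of all genes. At an unadjusted p under 0.05 there were 3 members between PDX and Old (4.92%, against 5.28% of all genes), and the tests of DESeq2 and limma also called 0. Between PDX and Adult, Eif4a2 alone passed, again downward (1.64% of members, against 2.66% of all genes in either direction, 1.76% upward and 0.898% downward). There, 6 members had an unadjusted p under 0.05 (9.84%, against 20.6% of all genes), and 14 between Old and Adult (23%, against 27.7%). Leaving out 1 mouse moved these counts and the shares of all genes. A mouse outside a comparison enters it only through the fit of all mice, with its shared spread, filter, scaling and adjustment. Between Old and Adult 0 members passed without any 1 Adult mouse, where 0.97% to 1.51% of all genes did. The count was 1, 3, 9, 1 and 6 without O1 to O5 in turn, where the share of all genes was 9.85%, 4.32%, 13.5%, 9.92% and 13.2%. It was 1 without P1 and 0 without P2, P3, P4 or P5, beside 4.42% to 5.47% of all genes. Between PDX and Adult 0 members passed without any 1 Adult mouse (1.03% to 1.28% of all genes). The count was 2, 3, 1, 0 and 4 without O1 to O5 in turn (3.18%, 11.1%, 3.21%, 2.47% and 10.9% of all genes), 0 without P1 to P4 (1.07% to 1.64%) and 1 without P5 (3.64%). Without O2 and O5 together, 4 members passed between Old and Adult (Eef1b2, Eef1g, Eef1akmt4 and Eif4b; 6.56%, against 7.12% of all genes), and 0 between PDX and Old. Between PDX and Adult 8 passed, 13.1% of the members, against 24.6% of all genes. The Adult mice enter both comparisons with them, and the Old mice enter both of theirs, so agreement or opposition between comparisons is in part built in.

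The direction of the smaller differences was uneven. The fitted fold change between Old and Adult was above 0 for 44 of 61 members (72.1%, against 56.8% of all genes), with a median of 0.17 beside 0.07 over all genes. For PDX minus Old it was below 0 for 53 members, against 59.9% of all genes, with a median of -0.15 beside -0.07. The median between PDX and Adult was -0.004, beside -0.01 over all genes. Without O5, 33 members were above 0 between Old and Adult (52.5% of all genes) with a median of 0.04 (0.02 over all genes). For PDX minus Old without O5, 40 members were below 0 (59.7% of all genes) with a median of -0.04, the same as over all genes. Without O2, 53 members were above 0 between Old and Adult (55.6% of all genes, medians 0.18 and 0.05) and 54 below 0 in PDX minus Old (54.0%, -0.18 and -0.03). The same counts without O2 and O5 were 36 (51.3%, 0.03 and 0.01) and 40 (51.7%, -0.04 and -0.01).

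**Figure D1:**
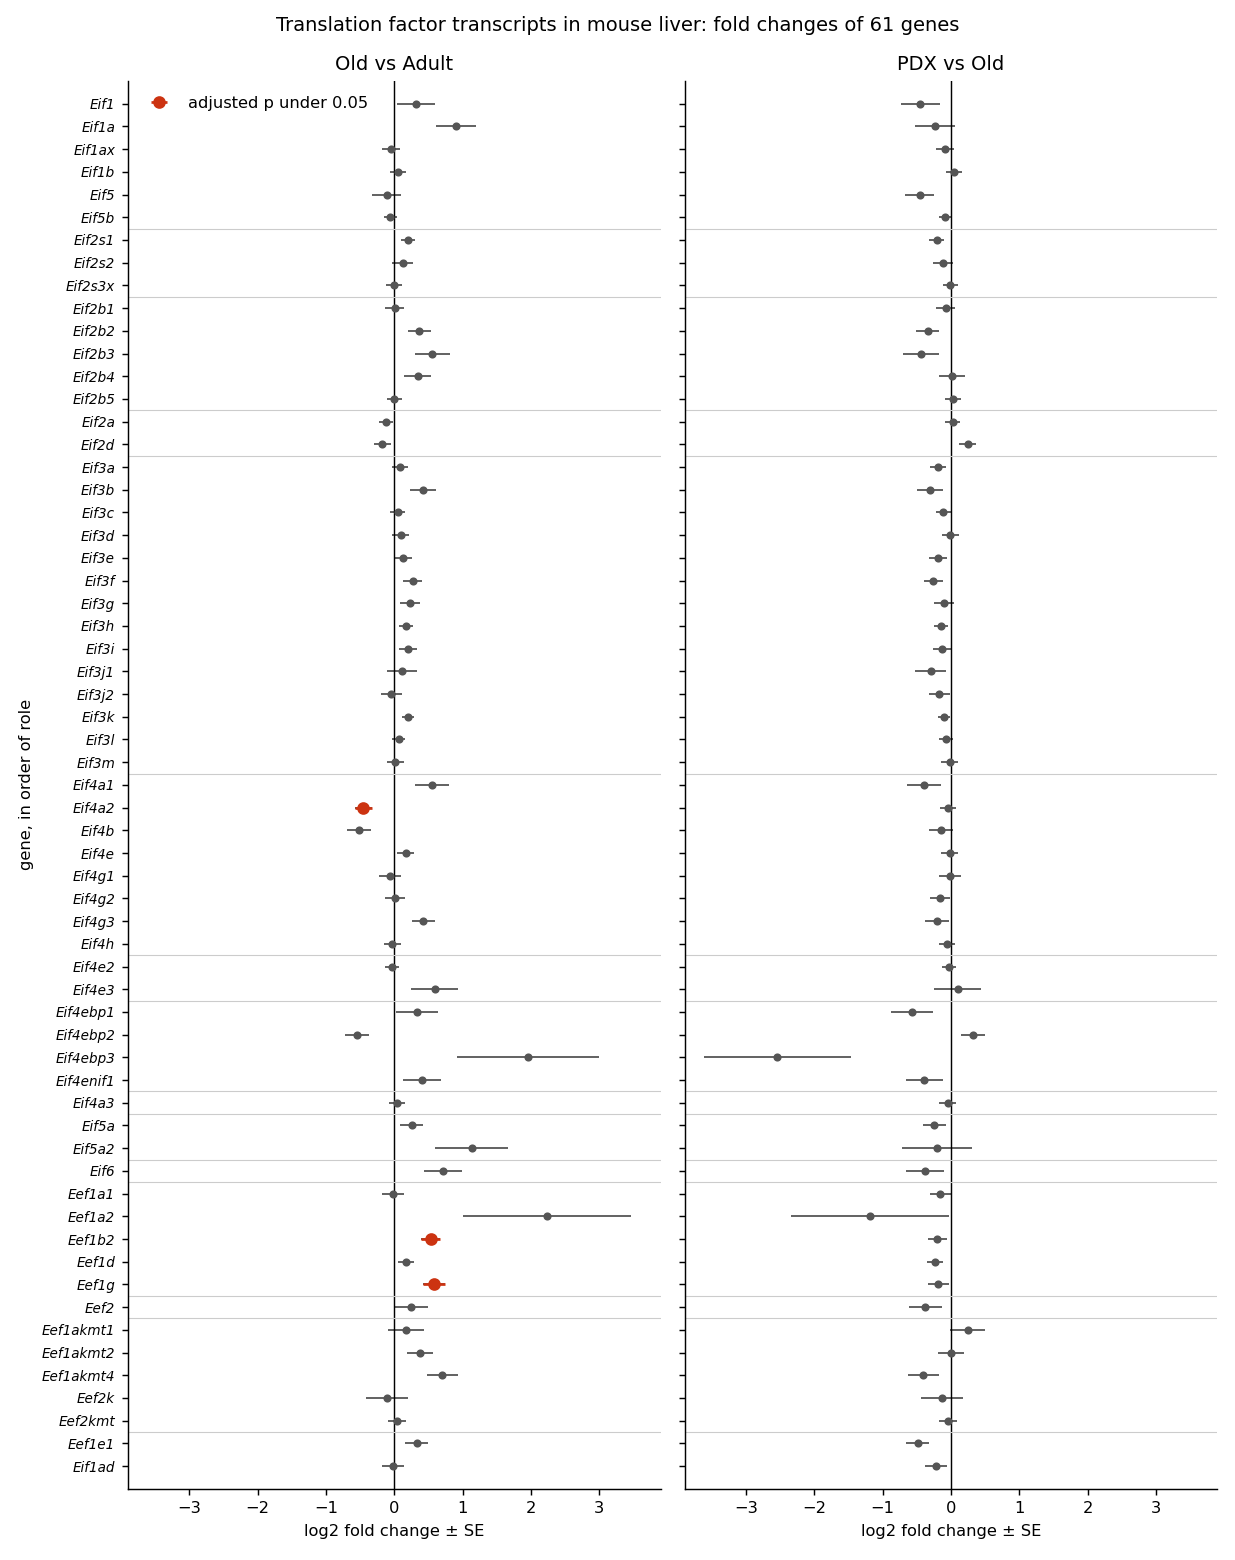
Log2 fold change ± SE of the 61 transcripts tested, in order of role, for Old over Adult and PDX over Old. Large red points mark the 3 transcripts with an adjusted p under 0.05 (Eif4a2, Eef1b2 and Eef1g); grey lines separate the roles, and no transcript passed between PDX and Old.

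In level per length of exon, the elongation factors Eef1a1 and Eef2 led the members by a wide margin, at mean levels of 884 and 507 CPM per kilobase over the 15 mice. Over all mice Eif5a, Eef1b2 and Eif4g1 were at 117, 69.9 and 67.3 CPM per kilobase. In the Adult group Eif4b (73.2), Eif4g1 (69.6) and Eif4ebp2 (64.1) lay above Eef1b2 (56.6), which was above these 3 in the Old (81.9) and PDX groups (71.2). Eef1a1 and Eef2 together held 41.8% to 50.2% of the counts of all members, with the highest share in O5. The members as a whole took 0.917, 0.807, 0.824, 0.848 and 0.865% of all counts in A1 to A5 and 0.781, 0.970, 0.810, 0.799 and 1.35% in O1 to O5. In P1 to P5 the share was 0.808, 0.721, 0.823, 0.748 and 0.819%. The groups overlapped, and O5 had the highest share of the 15 mice.

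The eEF1 complex loads aminoacyl-tRNA onto the ribosome through the GTPase eEF1A, and its B subunits recharge eEF1A with GTP. Eef1b2, which encodes the nucleotide exchange subunit eEF1B alpha and lies at chr1:63176825-63180486 of GRCm38, was at 148, 149, 141, 129.6 and 148 CPM in A1 to A5. In O1 to O5 it was at 264, 159, 165, 206 and 242 CPM. In P1 to P5 it was at 194, 166, 187, 178 and 177 CPM. Every Old and every PDX mouse lay above every Adult mouse, O1 and O5 were highest, and the PDX mice lay inside the range of the Old mice. The mean rose from 143 ± 8.14 to 207 ± 46.2 CPM (SD, n = 5 each), a log2 fold change of 0.53 (SE 0.14, adjusted p = 0.0386 in edgeR's test, 5 of 5 Old mice above the Adult mean). A small RNA gene, Gm27390, shares 6.95% of its exon bases. In whole liver, fewer cells of a type and less RNA per cell cannot be told apart.

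Eef1g, at chr19:8967041-8978479, encodes eEF1B gamma, which anchors the exchange subunits. It was at 39.6, 40.5, 36.8, 35.8 and 41.3 CPM in A1 to A5, at 81.3, 49.6, 42.1, 66.5 and 51.4 CPM in O1 to O5 and at 61.6, 47.9, 50.6, 49.0 and 46.5 CPM in P1 to P5. Here too the Adult mice lay below all others, by a narrow margin at O3, and O1 and O4 were the highest Old mice. The Old mean was higher by 0.58 on the log2 scale (SE 0.16, adjusted p = 0.0389 in edgeR's test, 5 of 5 Old mice above the Adult mean). Groups without overlap were found for 4 members between Old and Adult (Eef1b2 and Eef1g higher, Eif4b and Eif4ebp2 lower; 6.56%, against 8.13% of all genes).

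Both calls lay close to the threshold, and neither passed with limma, with no filter on low counts, with the mice of 2 groups only or with the replicate block. Without any 1 of the Adult mice, the adjusted p in edgeR's test was 0.0792 to 0.0982 for Eef1b2 and 0.0809 to 0.0966 for Eef1g, and neither passed. It was 0.0555 for Eef1b2 without O1, and 0.050032 without O1, just above the threshold, and 0.0561 without O4 for Eef1g. Leaving out 1 PDX mouse gave 0.0512 to 0.0566 for Eef1b2 and 0.0455 to 0.0553 for Eef1g, of which only Eef1g without P1 passed. Without O2 and O5 together both passed, with log2 fold changes of 0.58 and 0.72 and adjusted p of 0.0157 and 0.0185. PDX minus Old was -0.20 (SE 0.14) for Eef1b2 and -0.19 (SE 0.16) for Eef1g, with an adjusted p of 0.793 and 0.806. Without 1 mouse that of Eef1b2 ran from -0.29 to -0.11, and without O2 and O5 the values were -0.23 and -0.30. Against Adult, the PDX fold changes of 0.33 and 0.40 did not pass either (adjusted p = 0.199 and 0.166 in edgeR's test). They passed without O2 and O5 (0.0311 and 0.0456) and with the mice of these 2 groups only (0.00411 and 0.00444). O2 and O5 are not in this comparison, and without them the fold changes were 0.35 and 0.42. In these 2 settings 24.6% and 29.6% of all genes passed, against 2.66% in the main fit.

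The 3 other eEF1 subunits did not pass in any comparison. Eef1d, for the second exchange subunit, eEF1B delta, had 62.7 to 71.3 CPM in the Adult, 60.0 to 93.8 in the Old and 59.3 to 71.4 in the PDX group, and 4.27% of its exon bases lie in Naprt as well. Eef1a1, for the eEF1A of most tissues, had 2421, 2275, 2283, 2129 and 2411 CPM in A1 to A5, 2559, 1775, 2103, 2121 and 2799 in O1 to O5 and 2110.0, 1803, 2091, 1951 and 2235 in P1 to P5. The groups overlapped, with O5 highest and O2 lowest, and the log2 fold change between Old and Adult was -0.02 (SE 0.16). Without TMM factors O2 is not lowest for Eef1a1, with 60650 counts of 25731633, against 44904 of 26865442 in P2. Eef1a2, the eEF1A of muscle and neurons, was at 0.401 CPM per kilobase beside 884 for Eef1a1, with 0 to 157 counts per mouse. It was highest in O4, at 5.83 CPM, the mouse with the most of 5 skeletal muscle markers (151 CPM in sum, against 0.649 to 34.8 in the others). The part of muscle RNA in this value was not tested.

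Eef2 encodes eEF2, the GTPase that moves the ribosome by a codon. Its transcript was at 1800.0, 1520.2, 1576, 1607 and 1663 CPM in A1 to A5, at 1585, 1379, 1387, 1621 and 3684 CPM in O1 to O5 and at 1585, 1445, 1376, 1384 and 1654 CPM in P1 to P5. O5 stood far above all other mice, which overlapped across the groups. The log2 fold change between Old and Adult was 0.24 (SE 0.25, adjusted p = 0.554 in edgeR's test), and without O5 it was -0.13. For PDX minus Old it was -0.38 (SE 0.25), and -0.004 without O5.

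Of the enzymes that modify elongation factors, 5 of 6 were tested and 0 passed. Eef2k, the kinase that inhibits eEF2 by phosphorylation, was at 4.40 CPM in O5, below the 11.2 to 21.8 CPM of the other 14 mice. O5 also had the most Eef2 transcript, but it was highest for 25.9% and lowest for 28.6% of all genes. A relation of the 2 transcripts was not tested. Eef1akmt4, a lysine methyltransferase of eEF1A, was at 3.32, 4.02, 3.24, 4.24 and 3.59 CPM in A1 to A5, at 6.63, 3.63, 4.30, 5.91 and 9.52 CPM in O1 to O5 and at 5.13, 3.77, 4.04, 4.86 and 4.78 CPM in P1 to P5. O2 lay inside the Adult range and the other Old mice above it, for a log2 fold change of 0.70 (SE 0.23, adjusted p = 0.0679 in edgeR's test). Without O2 it passed (adjusted p = 0.0350), as without O3 (0.0365), and without O2 and O5 (0.0423). It did not pass without O1 (0.0851), O4 (0.0787) or O5 (0.100, fold change 0.47), nor without any 1 Adult (0.106 to 0.138) or PDX mouse (0.0826 to 0.0871). With all mice it passed in DESeq2's test (0.0258). The gene shares 30.7% of its exon bases with Gm49333, so its reads are uncertain. Eef1akmt1 and Eef1akmt2, for 2 other eEF1A lysine methyltransferases, had 2.16 to 7.52 and 2.81 to 5.81 CPM in the Old group, with O5 lowest for both. Eef1akmt1 was at 3.51, 5.85, 5.93, 4.83 and 4.99 CPM in A1 to A5, 7.52, 6.29, 5.62, 6.69 and 2.16 in O1 to O5 and 6.86, 6.86, 7.82, 6.36 and 5.54 in P1 to P5, and its PDX minus Old value of 0.24 (SE 0.26) was 0.04 without O5. Eef1akmt2 passed between Old and Adult without O5 (0.52, adjusted p = 0.0375 in edgeR's test). Eef2kmt, for the lysine methyltransferase of eEF2, had 6.63 to 8.49, 6.11 to 8.83 and 6.86 to 8.67 CPM in the Adult, Old and PDX groups.

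**Figure D2:**
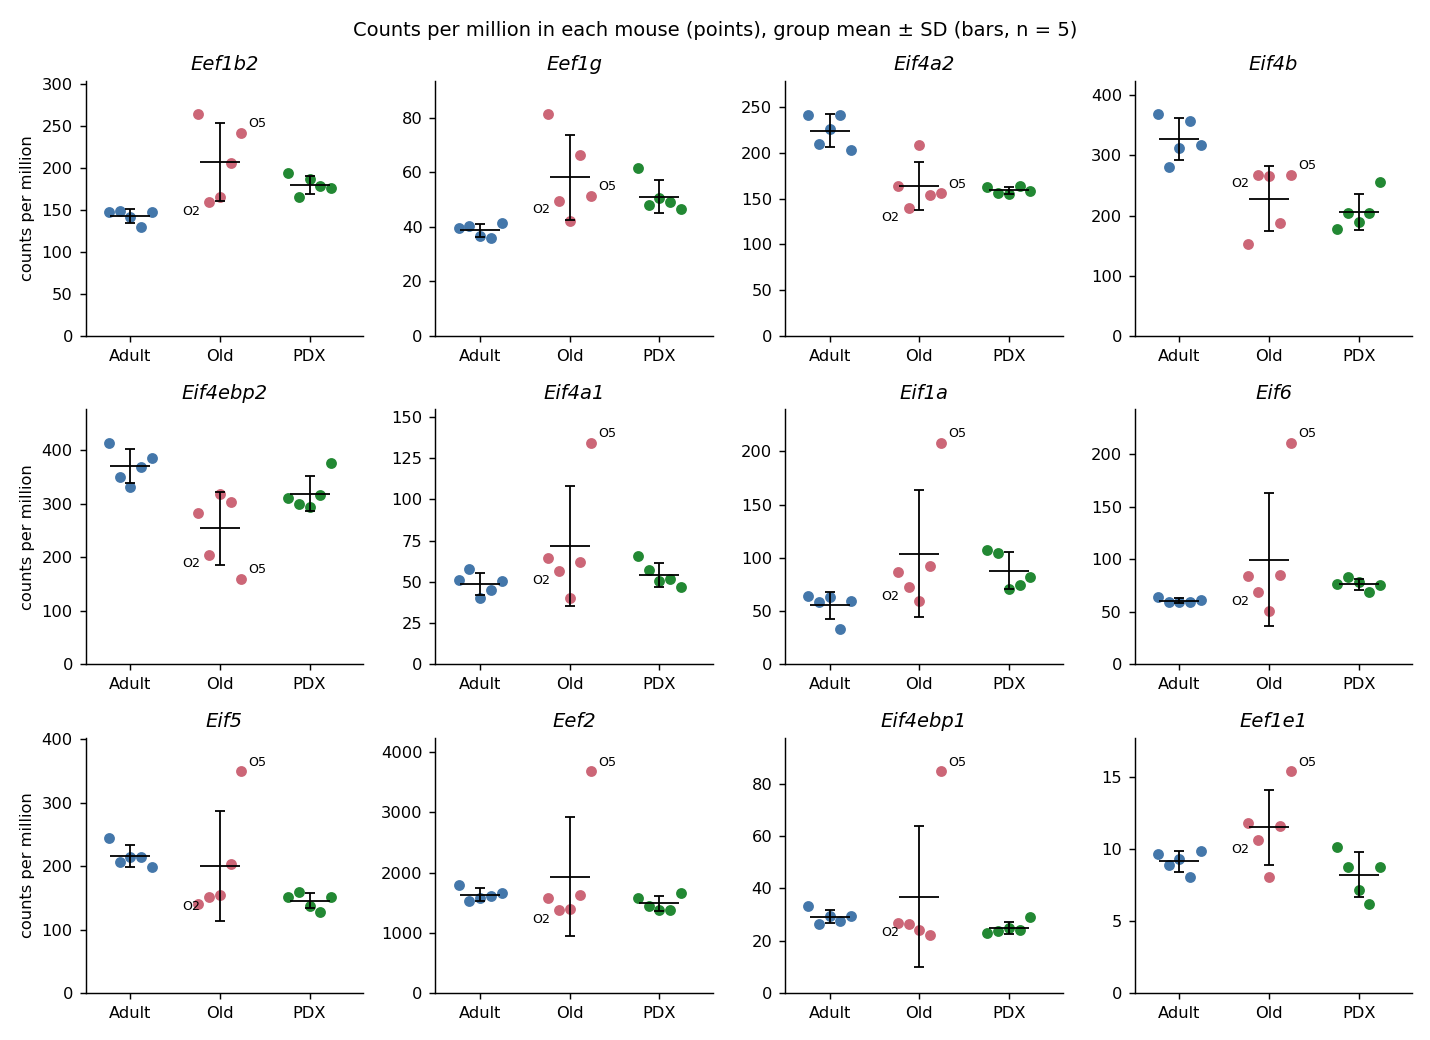
CPM of 12 transcripts in each mouse, by group, with the group mean and SD (n = 5); each vertical axis starts at 0, and O2 and O5 are named. The Adult mice lie below all Old mice for Eef1b2 and Eef1g and above all PDX mice for Eif4a2 and Eif4b, and O5 lies alone at the top for Eef2, Eif6, Eif1a, Eif4a1, Eif5 and Eif4ebp1.

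The eIF4F complex binds the cap through eIF4E, holds the mRNA on the scaffold eIF4G and unwinds it with the helicase eIF4A, helped by eIF4B and eIF4H. Eif4a2, at chr16:23107444-23114136, encodes 1 of the paralogous helicases. It was at 242, 209, 227, 241 and 203 CPM in A1 to A5. In O1 to O5 it was at 164, 139.7, 208, 154 and 156 CPM, and in P1 to P5 at 163, 156, 155, 164 and 158 CPM. All PDX mice and 4 of 5 Old mice lay below every Adult mouse, and only O3 reached the Adult range. The level fell from 224 ± 17.8 CPM in the Adult to 164 ± 26.2 in the Old group (SD, n = 5 each), a log2 fold change of -0.45 (SE 0.12, adjusted p = 0.0386 in edgeR's test). In the PDX group it was 159 ± 4.01 CPM (SD, n = 5), a log2 fold change of -0.49 against Adult (SE 0.12, adjusted p = 0.0391 in edgeR's test), and PDX minus Old was -0.04 (SE 0.12, adjusted p = 0.925).

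These calls also changed with the mice left out and with the method, while the fold changes kept their sign in every setting. Eif4a2 did not pass between Old and Adult with library size alone, with no filter on low counts, with the mice of 2 groups only or with the replicate block, and between PDX and Adult with the first, second or last of these. Without 1 Adult mouse the adjusted p of Eif4a2 in edgeR's test was 0.0706 to 0.0940 between Old and Adult and 0.0682 to 0.115 between PDX and Adult, and without 1 PDX mouse 0.0504 to 0.0551 and 0.0579 to 0.102. Between Old and Adult it did not pass without O1 (0.0532), O2 (0.0759) or O4 (0.0531), nor between PDX and Adult without O4 (0.0509). Without O2 and O5 together it was 0.0688 between Old and Adult and 0.00277 between PDX and Adult. The log2 fold change without 1 mouse was -0.55 to -0.39 between Old and Adult and -0.53 to -0.46 between PDX and Adult.

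The paralog Eif4a1, whose protein is the more studied helicase of eIF4F, did not pass. It was at 50.9, 57.8, 40.1, 45.4 and 50.5 CPM in A1 to A5, at 64.7, 56.7, 40.3, 61.8 and 134 CPM in O1 to O5 and at 65.7, 57.2, 50.6, 51.9 and 46.9 CPM in P1 to P5. O5 stood far above the rest and the groups overlapped, with a log2 fold change of 0.55 between Old and Adult (SE 0.25, adjusted p = 0.162 in edgeR's test), and of 0.19 without O5. The ratio of Eif4a2 to Eif4a1 counts was 4.75, 3.63, 5.65, 5.32 and 4.03 in A1 to A5, 2.54, 2.46, 5.17, 2.48 and 1.16 in O1 to O5 and 2.48, 2.73, 3.07, 3.16 and 3.37 in P1 to P5. Each PDX mouse and each Old mouse except O3 had a lower ratio than each Adult mouse, and O5 had the lowest. The sum of both was 254 to 293 CPM in Adult, 196 to 290.3 in Old and 205 to 229 in PDX mice. Small RNA genes lie in the exons of some annotated transcripts of both. For Eif4a2 these are 5 small nucleolar RNA genes, with 1.29%, 2.34%, 3.33%, 2.42% and 0.187% of its exon bases, and the microRNA gene Gm49346 with 1.99%. In Eif4a1 there are 2, with 3.30% and 3.32%. Pairs of reads that match both copies equally are missing from counts of unique alignments, so both levels are uncertain to that extent.

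Eif4b, at chr15:102073773-102097173, encodes the eIF4B that stimulates the helicase. It was at 368, 281, 312, 357 and 317 CPM in A1 to A5, at 153, 268, 265, 187 and 268 CPM in O1 to O5 and at 177, 205, 189.8, 205 and 256 CPM in P1 to P5. Both older groups lay below the Adult mice without overlap, with the lowest value in O1. The log2 fold changes were -0.52 between Old and Adult (SE 0.17, adjusted p = 0.0722) and -0.66 between PDX and Adult (SE 0.17, adjusted p = 0.0542), so neither passed in edgeR's test with all mice, and both passed in that of DESeq2 (0.0262 and 0.00405). Without O2 and O5 both did, at 0.0299 and 0.00592. Old against Adult also passed without O3 (0.0494) or O5 (0.0398), and PDX against Adult without O1 (0.0290), O2 (0.0218), O5 (0.0215) or P5 (0.0354). PDX minus Old was -0.14 (SE 0.17), and turned in sign to 0.04 without O2 and O5.

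No other transcript of the eIF4F group passed. The scaffolds Eif4g1 and Eif4g2, the latter for a relative that lacks the site for eIF4E, had log2 fold changes between Old and Adult of -0.06 and 0.02. Without O5 these were -0.19 and -0.09, so that of Eif4g2 turned in sign. Eif4g1 was at 544, 475, 452, 572 and 498 CPM in A1 to A5, at 418, 397, 412, 551 and 651 in O1 to O5 and at 491, 534, 409, 476 and 487 in P1 to P5, with overlap throughout. The third scaffold, Eif4g3, was at 42.8, 75.4, 50.6, 57.5 and 95.7 CPM in O1 to O5 and at 46.5 to 49.5 CPM in the Adult group. All Old mice except O1 lay above the Adult range, and the log2 fold change of 0.43 (adjusted p = 0.127) was 0.08 without O2 and O5, while without O1 it passed (0.0419). Eif4e, for the cap-binding protein, had 25.4 to 29.3, 25.1 to 36.8 and 25.8 to 36.2 CPM in the Adult, Old and PDX groups, and Eif4h had 161 to 182, 146 to 219.6 and 156 to 174 CPM.

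The eIF4E-binding proteins keep eIF4E from eIF4G until mTORC1 phosphorylates them. In 14 of 15 mice Eif4ebp2 was highest per kilobase, at 35.5 to 71.6 CPM, against 10.1 to 15.1 for Eif4ebp1 and 0.742 to 5.73 for Eif4ebp3. In O5 it was lowest, at 27.7 beside 38.6 and 69.5 CPM per kilobase. Eif4ebp2 was at 414, 351, 331, 369.8 and 387 CPM in A1 to A5, at 283, 205, 319, 304 and 160.5 CPM in O1 to O5 and at 311, 300.3, 294, 316 and 377 CPM in P1 to P5. Every Old mouse lay below every Adult mouse, with O5 and O2 lowest, and the PDX mice overlapped both groups. Without TMM factors O1 lies below O2, with 6664 counts of 26637699 against 7017 of 25731633. The log2 fold change was -0.54 between Old and Adult (SE 0.18, adjusted p = 0.0685 in edgeR's test) and -0.28 without O2 and O5, and of the fits without 1 mouse it passed only in that without O3 (adjusted p = 0.0342), while in DESeq2's Wald test with all mice it passed (0.0216). Without O2 its adjusted p was 0.152. PDX minus Old was 0.33 (SE 0.18, adjusted p = 0.793), with 5 of 5 PDX mice above the Old mean, and 0.09 without O2 and O5. This was the largest positive value between PDX and Old among the members.

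Eif4ebp1 was at 33.1, 26.5, 29.4, 27.4 and 29.5 CPM in A1 to A5, at 26.6, 26.5, 24.1, 22.2 and 84.7 CPM in O1 to O5 and at 22.8, 23.6, 24.7, 24.009 and 28.9 CPM in P1 to P5. O5 had about 3 times the level of any other Old mouse, and the remaining 4 Old mice overlapped both other groups. O5 thus had the highest Eif4ebp1 and the lowest Eif4ebp2 of the 15 mice, and its ratio of Eif4ebp2 to Eif4ebp1 counts was 1.89, where the other 14 mice had 7.75 to 13.7. Eif4ebp3 was at 3.29, 4.23, 2.28, 3.51 and 1.29 CPM in A1 to A5, 0.552, 1.70, 1.88, 0.854 and 51.7 in O1 to O5 and 4.26, 2.73, 0.694, 1.04 and 1.07 in P1 to P5. Old minus Adult was 1.96 (SE 1.04) and -1.22 without O5. Its log2 fold change between PDX and Old, -2.54 (SE 1.07, adjusted p = 0.793 in edgeR's test), was 0.63 without O5. It shares 67.3% of its exon bases with AC115631.1, so its reads are uncertain. Eif4enif1, for an eIF4E transporter, was at 90.8 CPM in O5 and at 26.0 to 38.2 CPM in all other mice.

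Among the relatives of eIF4E, Eif4e2, for a cap-binding repressor, had 42.9 to 51.1, 37.0 to 49.4 and 41.4 to 46.9 CPM in the Adult, Old and PDX groups. Eif4e3 was at 6.44, 6.83, 7.30, 6.15 and 7.15 CPM in A1 to A5, at 6.63, 23.2, 10.5, 6.43 and 4.36 CPM in O1 to O5 and at 10.7, 14.1, 10.8, 8.07 and 11.0 CPM in P1 to P5. O2 was highest and O5 lowest, and every PDX mouse lay above every Adult mouse. Groups without overlap between PDX and Adult were found for 10 members (16.4%, against 19.9% of all genes), with Eef1b2, Eef1g, Eif1a, Eif4e3, Eif5a2 and Eif6 higher and Eif1ad, Eif4a2, Eif4b and Eif5 lower in the PDX mice. No member had such groups between PDX and Old (0 of 61, against 0.342% of all genes). For Eif4e3 the log2 fold change between PDX and Adult was 0.69 (SE 0.34, adjusted p = 0.268 in edgeR's test), and 0.71 without O2 and O5 (adjusted p = 0.00587), with an adjusted p of 0.0388 without O2 alone. It shares 14.8% of its exon bases with Gm20696.

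The factors that select the start codon and join the subunits numbered 6, and 0 passed. Eif1a encodes the scanning factor eIF1A, as does its X-linked paralog Eif1ax. Eif1a was at 64.2, 58.1, 63.0, 33.3 and 59.4 CPM in A1 to A5, at 87.0, 72.8, 59.3, 91.9 and 208 CPM in O1 to O5 and at 108, 105, 70.8, 74.4 and 81.9 CPM in P1 to P5. O5 stood highest and A4 lowest, 4 of 5 Old mice and all PDX mice lay above the Adult range, and O3 lay inside it. The log2 fold changes were 0.90 for Old (SE 0.30, adjusted p = 0.0702) and 0.66 for PDX against Adult (SE 0.29, adjusted p = 0.218), and without O2 and O5 that for PDX passed (0.0169 in edgeR's test), as it did without O5 alone (0.0376). Old minus Adult was 0.48 without O5 (adjusted p = 0.111) and 0.52 without O2 and O5 (0.144), and of the fits without 1 mouse it passed only in that without O3 (0.0310). DESeq2's test with all mice called it (0.0267). Eif1ax had 34.7 to 45.0, 30.0 to 51.6 and 34.6 to 41.6 CPM in the Adult, Old and PDX groups. The ratio of Eif1a to Eif1ax counts was 1.66, 1.29, 1.54, 0.960 and 1.37 in A1 to A5, 2.15, 2.43, 1.66, 2.35 and 4.03 in O1 to O5 and 3.02, 3.02, 1.95, 1.97 and 1.97 in P1 to P5. Each of the 10 older mice had a higher ratio than each Adult mouse, with O3 and A1 nearly equal. Pairs that match both copies are not counted here either.

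Eif5, for the GTPase activator of eIF2, was at 244, 207, 214, 215 and 199 CPM in A1 to A5, at 141, 151, 155, 203 and 349.6 CPM in O1 to O5 and at 151, 159.7, 138, 128 and 152 CPM in P1 to P5. The PDX mice lay below all Adult mice, 3 of 5 Old mice lay among the PDX mice, and O5 was above all others. PDX minus Old was -0.46 on the log2 scale (SE 0.21, adjusted p = 0.793 in edgeR's test) and -0.16 without O5. Between PDX and Adult it was -0.57 (SE 0.21, adjusted p = 0.150), and without O5 it passed (0.00878), as did Old against Adult (-0.41, adjusted p = 0.0394). Eif1, for the factor that guards start codon choice, was at 117, 97.6, 90.8, 92.1 and 78.7 CPM in A1 to A5, 80.1, 72.3, 98.2, 86.0 and 258 in O1 to O5 and 84.0, 90.3, 86.3, 85.7 and 89.8 in P1 to P5, and its log2 fold change between PDX and Old, -0.45 (SE 0.28), was 0.05 without O5. Its paralog Eif1b was at 15.7, 17.6, 15.9, 16.8 and 17.9 CPM in A1 to A5, 21.1, 16.4, 14.7, 19.1 and 15.8 in O1 to O5 and 19.4, 15.6, 16.9, 19.5 and 18.6 in P1 to P5, with a PDX minus Old value of 0.05 (SE 0.11) that was -0.02 without O2 and O5. Eif5b, for the GTPase that joins the large subunit, had 75.8 to 96.5, 78.0 to 94.8 and 75.9 to 84.3 CPM in the Adult, Old and PDX groups.

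eIF2 carries the initiator tRNA, and eIF2B recharges it with GTP until stress kinases phosphorylate eIF2. Of the 3 eIF2 subunits and the 5 eIF2B subunits, 0 passed. Eif2s1, which encodes the phosphorylated alpha subunit, had 33.3 to 37.7, 34.2 to 50.9 and 33.9 to 35.7 CPM in the Adult, Old and PDX groups. Eif2s2 and Eif2s3x, for the beta and gamma subunits, had log2 fold changes between Old and Adult of 0.12 (SE 0.15, 0.03 without O5) and -0.005 (SE 0.11). Eif2b3, for eIF2B gamma, was at 26.7 CPM in O5 and at 6.94 to 12.7 CPM in the others, and Eif2b2, for eIF2B beta, at 34.8 CPM in O5 and 14.9 to 22.5 CPM elsewhere. Eif2b2 passed between Old and Adult without O3 (0.0483). For Eif2b4, which encodes eIF2B delta, the high mice were O1, P1 and O4, at 60.9, 55.2 and 53.6 CPM against 31.3 to 36.3 in the Adult group. Eif2b1 and Eif2b5, for the alpha and epsilon subunits, had log2 fold changes within 0.08 of 0 in all 3 comparisons.

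Eif2a and Eif2d, for factors that can deliver initiator tRNA without eIF2, were 2 of the 5 members with the lowest fold changes between Old and Adult, -0.13 (SE 0.10) and -0.17 (SE 0.13). The value of Eif2a was -0.05 without O2 and -0.20 without O5. Eif2a was at 41.6, 37.2, 39.1, 40.5 and 39.7 CPM in A1 to A5, 38.1, 29.7, 38.2, 32.4 and 43.4 in O1 to O5 and 38.9, 35.8, 35.4, 38.4 and 36.1 in P1 to P5. Eif2d was at 28.9, 35.2, 31.7, 31.5 and 30.6 CPM in A1 to A5, at 32.2, 22.6, 27.5, 34.4 and 23.3 CPM in O1 to O5 and at 37.4, 32.8, 32.9, 33.8 and 29.1 CPM in P1 to P5. O2 and O5 were lowest, and without both the fold change between Old and Adult was 0.0015. Without TMM factors O1 lies below O2, with 758 counts of 26637699 against 773 of 25731633. PDX minus Old was 0.25 on the log2 scale (SE 0.13, adjusted p = 0.793 in edgeR's test), and without O2 and O5 it was 0.09.

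The scaffold eIF3 binds the small subunit and recruits mRNA. All 14 of its transcripts were tested and 0 passed in any comparison. Between Old and Adult 13 of 14 had a fold change above 0 (56.8% of all genes), with a median of 0.12 beside 0.07 over all genes. Without O5, 9 of 14 were above 0 (52.5% of all genes), with a median of 0.10 beside 0.02, and Eif3c, Eif3e, Eif3j1, Eif3j2 and Eif3m were below. For PDX minus Old all 14 were below 0 (59.9% of all genes), with a median of -0.14 beside -0.07, and without O5 13 of 14 were (59.7%), with a median of -0.05 beside -0.04. Without O2 all 14 were above 0 in Old minus Adult (median 0.17 beside 0.05) and below 0 in PDX minus Old (-0.19 beside -0.03). The counts without O2 and O5 were 11 (0.14 beside 0.01) and 12 (-0.11 beside -0.01). In PDX minus Adult 7 were above and 7 below 0. Eif3b, a core subunit, had the largest fold change between Old and Adult (0.42, SE 0.19, adjusted p = 0.166 in edgeR's test), from 141, 128, 119.7, 127 and 131 CPM in A1 to A5 and 150.05, 139.7, 119, 168 and 289 CPM in O1 to O5. O5 was again far above the rest, and O3 was lower than every Adult mouse. Without O5 the fold change was 0.15, and 0.18 without O2 and O5.

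Eif3k and Eif3f had fold changes between Old and Adult of 0.20 (SE 0.09) and 0.27 (SE 0.14), the latter 0.12 without O5. For Eif3a, Eif3c, Eif3d, Eif3e, Eif3g, Eif3h, Eif3i, Eif3l and Eif3m the fold changes between Old and Adult were 0.02 to 0.23. The loosely bound subunit eIF3j has 2 genes in the mouse, Eif3j1, at 13.7, 13.5, 12.5, 11.6 and 12.9 CPM in A1 to A5 and 14.9, 7.58, 10.2, 13.2 and 23.6 in O1 to O5, and Eif3j2, at 22.1, 21.0, 20.9, 18.8 and 20.5 and 19.0, 14.6, 18.5, 20.3 and 27.8 CPM. In both, O5 was highest and O2 lowest of the Old mice. For Eif3j2 the rank of O2 rests on TMM factors, as O1 had 447 counts of 26637699 and O2 499 of 25731633. Pairs that match both of these near-identical genes are not counted, which leaves their levels uncertain.

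eIF5A, the only protein with the amino acid hypusine, eases peptide bond formation at difficult sites. Eif5a was at 255, 287, 261, 251 and 255 CPM in A1 to A5, at 341, 212, 237, 314 and 456 CPM in O1 to O5 and at 274, 255, 251, 273 and 266 CPM in P1 to P5, with O5 highest and O2 lowest. Without TMM factors O2 is not lowest, with 7242 counts of 25731633, against 6352 of 26865442 in P2. Old minus Adult was 0.25 on the log2 scale (SE 0.17, adjusted p = 0.365 in edgeR's test), 0.07 without O5 and 0.37 without O2. Its paralog Eif5a2 was at 0.0897 CPM per kilobase, against 117 for Eif5a, with 3 to 38 counts per mouse and the highest values in O2 and O5 (1.11 and 1.01 CPM).

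Eif6, for the factor that keeps the large subunit from joining too early, was at 64.0, 59.1, 59.6, 59.6 and 61.5 CPM in A1 to A5, at 83.8, 68.9, 50.6, 85.1 and 211 CPM in O1 to O5 and at 76.7, 83.4, 78.1, 68.9 and 75.2 CPM in P1 to P5. The Adult values were close together, every PDX mouse lay above them, O5 stood alone at the top and O3 was below the Adult range. The log2 fold change between Old and Adult was 0.72 (SE 0.28, adjusted p = 0.113 in edgeR's test) and 0.25 without O5, and without O3 it passed (0.0366). PDX minus Adult was 0.33 (SE 0.28, adjusted p = 0.537), and without O2 and O5 it passed at 0.35 (0.0450).

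3 members carry a factor name but have another main role or none that is settled. Eif4a3, the helicase of the exon junction complex, had 30.0 to 32.5, 23.3 to 39.4 and 29.3 to 36.4 CPM in the Adult, Old and PDX groups. Eef1e1, a scaffold of the multi-tRNA synthetase complex, had the smallest p of the members between PDX and Old. It was at 9.64, 8.84, 9.26, 8.01 and 9.84 CPM in A1 to A5, at 11.8, 10.6, 8.07, 11.6 and 15.4 CPM in O1 to O5 and at 10.1, 8.75, 7.16, 6.15 and 8.74 CPM in P1 to P5. The Old and PDX groups overlapped at O3, P1, P2 and P5, and O5 was highest and P4 lowest. Its log2 fold change was -0.49 (SE 0.17, adjusted p = 0.793 in edgeR's test, 5 of 5 PDX mice below the Old mean). Eif1ad, named for an eIF1A domain, had 21.8 to 23.6 CPM in the Adult, 14.7 to 32.7 in the Old and 17.3 to 21.0 CPM in the PDX group.

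Single mice stood out across the members. O5 had the highest level of the 15 mice for 37 of 61 transcripts (60.7%, against 25.9% of all genes) and exceeded every other mouse by over 1.5-fold for 12 (19.7%, against 9.66% of all genes). These were Eef2, Eif1, Eif1a, Eif2b2, Eif2b3, Eif3b, Eif3j1, Eif4a1, Eif4ebp1, Eif4ebp3, Eif4enif1 and Eif6. O2 did so for Eif4e3 alone (1.64%, against 9.85% of all genes), and O2 and O3 each had the lowest level for 14 members (23%, against 12.4% and 6.17% of all genes). These ranks are of levels scaled with TMM factors, as are the ranks of O2 given elsewhere. The median difference of the members from the Adult mean was 0.160, -0.0762, -0.146, 0.126 and 0.368 on the log2 scale in O1 to O5, where the medians of all genes lay between -0.0105 and 0.0153. In P1 to P5 it was 0.0613, -0.0357, -0.0698, -0.0714 and 0.0428. With TMM factors, O1, O4 and O5 thus lay above the Adult mean and O2 and O3 below it, and the PDX mice were closer to it. The share of all counts uses no TMM factor. It was 0.970% in O2, above the 0.807 to 0.917% of the Adult mice, so the place of O2 depends on the scaling.

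**Figure D3:**
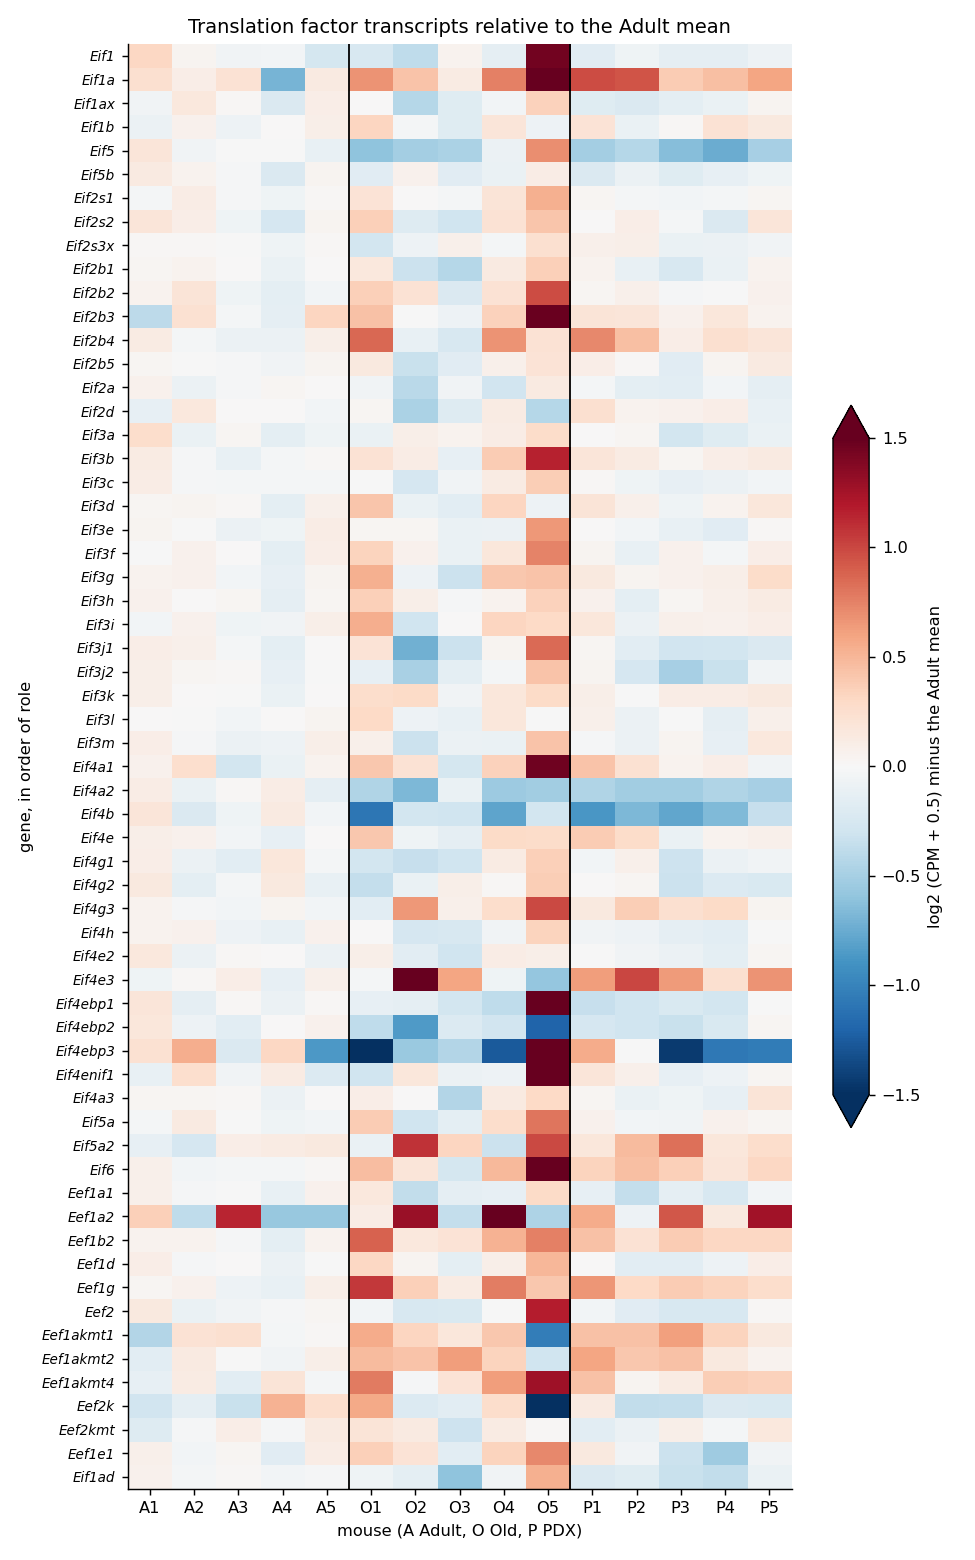
Level of the 61 transcripts tested in each mouse, as log2 of CPM plus 0.5 minus the Adult mean, in order of role; red is higher and blue lower, and the colour scale ends at 1.5 in each direction. The column of O5 is mostly red, with Eif4ebp2, Eef2k and Eef1akmt1 in blue, and the lines of Eif4a2 and Eif4b are blue in the older mice.

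Other genes of translation and its control, were tested in 8 lists of 86 genes. Between Old and Adult 0 genes passed among 9 eIF2 kinases and phosphatase regulators, 18 initiation cofactors, 6 termination and recycling factors, 9 hypusine and diphthamide enzymes, 9 mitochondrial translation factors and 5 selenocysteine insertion genes. Of 10 mTORC1 and S6 kinase genes, 1 passed (10%), and 2 of 20 cytosolic aminoacyl-tRNA synthetases (10%), against 6.78% of all genes. Between PDX and Old 0 of the 86 passed, and between PDX and Adult 1 synthetase (5%, against 2.66% of all genes). The median fold changes between Old and Adult were 0.29, 0.05, 0.18, 0.06, -0.17 and -0.28 in the order of the 6 lists without a call, -0.08 for mTORC1 and 0.10 for the synthetases, beside 0.07 over all genes.

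Deptor, an inhibitory partner of mTOR, was at 158, 127, 122, 148 and 119.7 in A1 to A5, 91.9, 67.2, 114, 93.1 and 49.9 in O1 to O5, 84.7, 94.7, 80.7, 88.8 and 105 in P1 to P5 (all CPM). Every older mouse lay below every Adult mouse. Deptor fell by 0.70 on the log2 scale between Old and Adult (SE 0.19, adjusted p = 0.0383 in edgeR's test), and its log2 fold change between PDX and Adult was -0.57 (adjusted p = 0.107). O5 and O2 were lowest, and without both the Old fold change was -0.43 and did not pass (0.0526). It did not pass either without O2 (0.0837), without any 1 Adult mouse (0.0713 to 0.0954) or without P1, P2, P3 or P4 (0.0502 to 0.0538). Wars, the tryptophanyl-tRNA synthetase, was at 25.8, 21.8, 23.9, 19.2 and 25.7 in A1 to A5, 46.1, 41.3, 24.956, 36.6 and 26.0 in O1 to O5, 44.3, 36.5, 32.2, 33.5 and 38.3 in P1 to P5 (all CPM). It rose by 0.59 in Old (adjusted p = 0.0489 in edgeR's test) and by 0.67 in PDX against Adult (adjusted p = 0.0488), with O3 inside the Adult range and all PDX mice above it. Without O2 and O5 both passed (0.0369 and 0.00468), and neither did without any 1 Adult mouse (0.0812 to 0.115 and 0.0801 to 0.128) or 1 PDX mouse (0.0577 to 0.0660 and 0.0670 to 0.129). Old against Adult also failed without O1 (0.0655), O2 (0.0982) or O4 (0.0610), and PDX against Adult without O4 (0.0607). Vars, for the valine enzyme, which binds the eEF1 complex, was highest in O5 and O2 (104 and 88.1 CPM against 44.0 to 49.3 in Adult) with O1, O3 and O4 at 52.1, 59.6 and 60.5 CPM. It rose by 0.62 (SE 0.17, adjusted p = 0.0399 in edgeR's test), and without O2 and O5 the value was 0.29 and did not pass (0.0823). It did not pass either without O2 (0.0758), without any 1 Adult mouse (0.0786 to 0.0961) or without P1, P3, P4 or P5 (0.0515 to 0.0568).

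The levels of cell type markers differed between the livers as well. All 6 hepatocyte markers were present, led by Alb, and 1 of 6, Cyp2e1, passed between Old and Adult, downward. Their summed CPM was 137563, 141289, 135732, 131318 and 131788 in A1 to A5, 203169, 76755, 132246, 163686 and 48826 in O1 to O5, 137639, 108204, 128455, 165097 and 161074 in P1 to P5. O5 and O2 had the lowest sums of the 15 mice. Of 6 markers of neutrophils and myeloid progenitors, 5 were tested and all 5 were higher in Old than in Adult mice, with sums, led by Prtn3, of 3.88, 2.47, 5.29, 4.10 and 2.30 in A1 to A5, 27.9, 159.8, 15.2, 71.9 and 30.4 in O1 to O5, 86.9, 175, 35.2, 74.0 and 51.5 in P1 to P5. Of the 5 plasma cell markers, 4 were tested and 3 were higher in Old mice (Mzb1, Derl3 and Pou2af1), with sums, led by Jchain, of 6.21, 3.56, 5.88, 5.75 and 4.16 in A1 to A5, 31.9, 34.0, 22.7, 35.6 and 29.1 in O1 to O5, 17.2, 38.1, 44.2, 35.3 and 15.3 in P1 to P5. The sums of both lists were thus higher in every older mouse than in every Adult mouse, as were the cholangiocyte sums below, by a narrow margin. Such groups without overlap were found for 8.13% of all genes between Old and Adult and 19.9% between PDX and Adult.

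O2 and O5 differed from each other in these lists. O2 had the highest sums for 5 T cell markers (47.5 CPM, against 1.26 to 22.0 in the other mice), 6 cycling cell markers (136 against 4.38 to 17.3), 6 Kupffer cell markers (3263 against 246 to 1571) and 6 erythroid markers (1059 against 95.8 to 478). The leading genes were Cd3g, Mki67, Cd5l and Hbb-bs. O5 had the highest sum of 5 stellate cell markers, led by Dcn (755 CPM against 298 to 539), and the lowest of 5 sinusoidal endothelial markers, led by Clec4g (118 against 196 to 269). The 5 cholangiocyte markers, led by Spp1, summed to 37.7 to 50.9 CPM in Adult, 51.0 to 95.8 in Old and 53.0 to 104 in PDX mice, and 5 neural and endocrine markers, led by Syp, to at most 4.05 CPM. Col1a1 of the stellate, Mki67 of the cycling and Tubb3 of the neural list passed as higher in Old than in Adult mice, 1 gene per list, against 6.78% of all genes in either direction. The cycling sums were 11.6, 136, 14.2, 4.38 and 5.77 CPM in O1 to O5, against 4.54 to 6.60 in Adult mice. The stellate sums were 306, 539, 392, 301 and 755 CPM in O1 to O5, against 304 to 335 in Adult mice. In PDX against Adult mice Cyp2e1 was lower, and Mpo, Elane, Prtn3, Jchain, Derl3, Spp1 and Tubb3 were higher. The Kupffer sums were 452 to 658 CPM in Adult and 755 to 1571 CPM in PDX mice, without overlap, as for 19.9% of all genes. Of the 6 Kupffer markers, 0 passed in any comparison. No marker of these lists had 0 counts in every mouse. The part of these markers' cell types in the levels of the translation factors was not tested.

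Promoter sequences from RefSeq (GRCm38.p6), 250 bases before to 50 after each transcript start, were found for 47 of the 63 members, in 61 windows. The palindrome CACGTG, the E-box read alike on both strands, was in the windows of 13 of these 47 genes (27.7%). It was in 11.3% of 10515 tested protein-coding genes with a window and in 8.09% of all 27025 genes. The median GC content of the windows was 62.3%, 60.3% and 52.7%. The 13 were Eef1akmt4, Eef2, Eef2k, Eif1b, Eif3a, Eif3f, Eif3k, Eif4a1, Eif4e, Eif4g1, Eif4h, Eif5a and Eif5a2. CCGGAAGT, on either strand, was in 8 of the 47 genes (17%), against 8.58% and 4.31%. CACGTG is not in the windows of Eef1b2 and Eif4a2, and Eef1g had no entry. A match of letters is a description and not a binding site.

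Stretches of 100 bases upstream of a RefSeq transcript start are shown for 4 members. Eif4a2 is shown as a member past the threshold, and Eif4a1, Eef2 and Eif4g1 were picked after the search to show CACGTG in its setting, so they do not stand for the share of members that hold it. The stretches run 5′ to 3′ on the strand of the gene and without annotated exon bases, with CACGTG in capitals. Counted from that start, in the order printed, they are bases -130 to -31, -240 to -141, -100 to -1 and -110 to -11. The RefSeq start of Eif4g1 lies inside the gene as annotated in GENCODE, which begins at 20668313. The stretches lie at chr16:23107338-23107437 (plus strand), chr11:69672564-69672663 (minus strand), chr10:81176531-81176630 (plus strand) and chr16:20672617-20672716 (plus strand), in the order printed.
Eif4a2: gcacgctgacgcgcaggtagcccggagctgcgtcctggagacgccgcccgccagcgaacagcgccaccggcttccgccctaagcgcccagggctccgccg
Eif4a1: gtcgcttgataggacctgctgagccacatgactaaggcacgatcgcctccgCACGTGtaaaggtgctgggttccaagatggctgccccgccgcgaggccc
Eef2: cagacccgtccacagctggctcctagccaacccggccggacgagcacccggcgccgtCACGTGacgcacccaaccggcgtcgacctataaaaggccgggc
Eif4g1: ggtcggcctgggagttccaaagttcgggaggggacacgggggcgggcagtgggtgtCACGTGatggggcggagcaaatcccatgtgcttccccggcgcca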

How the data were processed

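Libraries of liver RNA were poly(A)-selected and strand-specific, with paired reads of 50 bases. Per the labels and the methods of the study, the authors aligned reads to mm10 with STAR 2.6.0c and made counts of uniquely aligned proper pairs per Ensembl gene with featureCounts (Subread 1.6.2). For 1 alternative the deposited log2-scale values were used, which the authors computed by variance stabilization in DESeq2 1.23.10. Columns without a sample numbered 0.

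Gene symbols and coordinates are from GENCODE M21. Counts were filtered with filterByExpr (minimum count 10, minimum total 15), scaled with TMM factors and tested with edgeR 4.0.16 (quasi-likelihood, 1 coefficient per group) in R 4.3.3. Alternatives used DESeq2 1.42.0 and limma 3.58.1. The steps were tested on simulated data. Tables were made in Python 3.11.15 with pandas 2.3.3 and numpy 2.4.6. A level per length is the mean CPM over the union of exon bases. Log2 CPM used a prior count of 2.

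Genes named by rule are members past a threshold, the 5 largest rises and falls between Old and Adult and between PDX and Old (mean log2 CPM 1 or more), the 3 smallest p between PDX and Old, the 5 most abundant per length and fixed paralog groups. Other members are given with their role, and those singled out for a mouse were chosen after their values were seen. The members and lists were chosen with earlier results of these data known. Sequences are from RefSeq.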

Additional observations from a re-analysis of the deposited data

Results flagged for a closer look

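In 6 of 66 groups of 5 mice, over the 22 members named by rule, 1 mouse lay far from the other 4, with a gap of over 0.71 of the range on the log2 scale. Chance gives about 1 in 20 such groups, but many of these members were named for their large differences in the Old group, which O5 moves, so the count is not set against that rate. O5 accounted for 5 of the 6. In O5 Eef2 was at 3684.46 CPM (1379 to 1621 in the other Old mice), Eif1 at 257.78 CPM (72.3 to 98.2), Eif4ebp1 at 84.7003 CPM (22.2 to 26.6), Eif4ebp3 at 51.6932 CPM (0.552 to 1.88) and Eef1akmt1 at 2.1644 CPM (5.62 to 7.52). The remaining one was A4, with Eif1a at 33.3359 CPM, where the other Adult mice had 58.1 to 64.2.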

How the results depend on the processing

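For the named members under other settings, 778 values kept their direction and their side of the threshold, 62 no longer passed, 16 newly passed and 32 changed sign. Between Old and Adult, 7 members passed with DESeq2 (11.5%, against 16% of all genes; Eif4ebp2, Eif1a, Eif4b and Eef1akmt4 beside the 3 of edgeR), 1 with limma on the deposited log2-scale values (1.64%, against 4.12%), and 0 with no filter on low counts (2.26% of all genes) or with the mice of 2 groups only (0.698%). With library size alone Eef1b2, Eef1g and Eef1akmt4 passed (4.92%, against 6.86% of all genes) and Eif4a2 did not, and with limma Eif4a2 was the only one. Between PDX and Adult, 2 passed with DESeq2 (3.28%, against 8.75% of all genes), 2 with limma (2.54% of all genes), 0 with library size alone (2.27%) and 0 with no filter (1.13%). With the mice of 2 groups only 11 passed (18%, against 29.6%; Eif5, Eif4a2, Eif1ad, Eef1b2, Eif6, Eif4g3, Eif2b4, Eif1a, Eif4b, Eef1g and Eif4e3), and 8 without O2 and O5 (13.1%, against 24.6%). Leaving out 1 mouse gave 0 to 9 members between Old and Adult and 0 to 4 between PDX and Adult. In every setting 0 passed between PDX and Old. The median over the members was 0.0440 to 0.2109 between Old and Adult, -0.1896 to -0.0372 between PDX and Old and -0.0365 to 0.0153 between PDX and Adult without 1 mouse. The cause was not tested.

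Among the members named by rule in each comparison, these log2 fold changes turned in sign. With library size alone, Eef1a1 was at 0.0476 and Eif4g1 at 0.0102 between Old and Adult, and Eif4e3 at -0.1146 and Eif1b at -0.0242 between PDX and Old. With the mice of 2 groups only, Eef1a1 was at 0.0050 between Old and Adult. Without O2 and O5, Eif4ebp3 was at -1.3886, Eif2d at 0.0015 and Eef2 at -0.0819 between Old and Adult. For PDX minus Old without both, Eif1b was at -0.0159, Eif4ebp3 at 0.8183, Eif4ebp1 at 0.0375 and Eif4g1 at 0.0646. Without 1 mouse, values between Old and Adult ran from -1.2180 to 2.3140 for Eif4ebp3, -0.1080 to 0.0649 for Eef1a1, -0.1307 to 0.3466 for Eef2 and -0.1939 to 0.0093 for Eif4g1. For PDX minus Old they ran from -0.0965 to 0.6449 for Eif4e3, -0.0079 to 0.1152 for Eif1b, -3.0405 to 0.6341 for Eif4ebp3, -0.5830 to 0.0518 for Eif1 and -0.0861 to 0.1087 for Eif4g1. Between PDX and Adult Eif5a ran from -0.0053 to 0.0444. The cause was not tested.

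With the replicate number as a replicate block, 0 members passed between Old and Adult (1.5% of all genes) and 0 between PDX and Adult (2% of all genes). Mice of the same number had mean correlations of -0.168 (Old and Adult), 0.092 (PDX and Old) and 0.031 (PDX and Adult). Other pairs had 0.0435, -0.0225 and -0.0078. The mice are separate animals and not paired. Within each group the number follows the rank by positive frailty criteria, from 0 to 1 in A1 to A5, 1 to 4 in O1 to O5 and 0 to 4 in P1 to P5. The block therefore also groups mice by that rank, and the correlations do not show the number to be a mere label.

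Transcript levels say nothing of phosphorylation or protein. Pairs of reads that match close copies or lie in several genes are not in these counts, so the levels of such genes are uncertain. There were 5 mice per group, and O2 and O5 stand apart.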
